A study of Homo sapiens with 36 samples.

Results

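The genes described here are 10 regulators that restrain or relay NF-kB signalling, most of them through ubiquitin. They were chosen by symbol, and each symbol was matched to its Ensembl identifier in a count table of 74628 genes. The choice was made from what the genes are known to do and not from a threshold on their values. Earlier results of these data were known when it was made. By role they are the ubiquitin-editing enzyme TNFAIP3 (also called A20), the adaptors TNIP1, TNIP2 and OPTN, the deubiquitinases CYLD and OTULIN, the ligase adaptor TRAF3, the ubiquitin ligases BIRC2 and BIRC3, and MIR3142HG, the long noncoding host transcript of the microRNA miR-146a.

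NF-kB is a family of dimeric transcription factors, and RELA encodes a subunit with a strong activation domain. Receptors of the TNF, interleukin-1 and antigen type switch it on through chains of ubiquitin that gather the IkB kinases, and enzymes and adaptors that cut or cap these chains switch it off again. Some of those brakes are themselves NF-kB target genes, so that the factor limits its own activity. In T cells, A20 and CYLD restrain signals from the antigen receptor, while TRAF3 with the ligases encoded by BIRC2 and BIRC3 keeps the kinase NIK, and with it the second arm of the pathway, in check.

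The cells were Jurkat, a human T-lymphocyte leukaemia line, in a version that stably carried dCas9-VP64 and was marked mCherry+. dCas9-VP64 is a Cas9 that cannot cut, fused to a transcriptional activator, and a guide RNA brings it to a promoter (CRISPR activation). A pXPR lentiviral vector brought in either sgRELA, a single guide against RELA, or sgControl, a guide labelled non-targeting; puromycin was applied for 3 days, and cells were collected on day 5, 6 or 7 after transduction. The 6 groups of guide and day each had 3 biological replicates, with transductions done in triplicate, and each RNA sample gave 2 RamDA-seq libraries from 100 pg of total RNA, a method that covers transcripts with and without a poly(A) tail. All groups, controls included, carried the activator and had been through the virus and the drug. The labels name 1 guide sequence against RELA, so what RELA does and what else that guide may do cannot be told apart.

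The 36 libraries held 7586205 to 16124473 counts each, and the 18 RNA samples 18769530 to 29503934 after both libraries were added. Levels are counts put on the scale of a common library size (CPM, with TMM factors), as mean ± SD over biological replicates. Values of single libraries are plain CPM on the library's own total, without TMM factors. A gene was called when edgeR's quasi-likelihood test gave a Benjamini-Hochberg adjusted p under 0.05 over all genes tested, and log2 fold changes are given ± SE. With the 3 days of a replicate number added, RELA, the targeted gene, stood at 209.5 ± 12.9 CPM with its guide against 27.2 ± 2.77 CPM with sgControl (n = 3). Its sgRELA level was 293.7 CPM on day 5, 201.1 CPM on day 6 and 127.2 CPM on day 7, above every sgControl sample on each day. All 10 T-lineage markers listed were detected, with summed levels of 2015.9 to 2942.7 CPM with sgControl and 2223.5 to 3082.3 CPM in sgRELA. Among them CD28 was called higher in sgRELA across days, with a log2 fold change of 0.31 ± 0.06 (adjusted p = 0.0177). It was also called on day 6 (0.60 ± 0.11, adjusted p = 0.00657). The 10 markers of other cells summed to 87.7 to 111.2 CPM with sgControl and 122.4 to 152.4 CPM in sgRELA. Of these, CD79A (19.8 against 56.0 CPM, called higher) and PECAM1 (75.9 against 84.8 CPM, not called) made up nearly all, while the other 8 summed to at most 3.86 CPM in any sample and EPCAM and HBB had no count in any library; the part of these markers in the results was not tested.

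Promoter sequence is shown first because several of these genes are textbook NF-kB targets. The windows run from 250 bases before to 50 bases after each RefSeq transcript start (GRCh38.p14), all 10 genes matched at least 1 window, and both strands were searched for the 10-base kB consensus with overlapping matches counted. Of the 10 genes, 7 held a match in at least 1 window, where 13.3% of 27305 genes and 11.3% of 35116 windows did. The 30 bases around the matches of the 3 genes that differed between guides are given below in the direction of transcription, with the matching bases in capitals.
TNFAIP3: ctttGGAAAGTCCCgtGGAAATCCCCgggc
OPTN: gcggggcccGGGAAATTCCCcggcgcgggc
MIR3142HG: ggatctagaaGGGACTTTCCagagagggtt

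The TNFAIP3 stretch is chr6:137867188-137867217 on the plus strand and holds a pair of matches side by side, from position -67 to -46 with the start site counted as 0; GENCODE v29 places the start at -71, upstream of both. The OPTN stretch is chr10:13100061-13100090 on the plus strand, and its 2 matches overlap by all but 1 base, from -12 to -2 of the upstream of 2 annotated starts. GENCODE v29 has no start in the window of that upstream start. From the other annotated start the 2 matches lie at -93 to -83. The MIR3142HG stretch is chr5:160468121-160468150 on the plus strand, with its match at -120 to -111. GENCODE v29 has a start at 17 in this window, but its gene begins further upstream, at 160438594. Genes that were not called between guides held matches as well, and these are shown for comparison.
TNIP1: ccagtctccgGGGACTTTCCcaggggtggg
TRAF3: cgggcgcgccGGGGATTTCCagcgcgcgag
BIRC3 distal: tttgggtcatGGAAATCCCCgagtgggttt
BIRC3 proximal: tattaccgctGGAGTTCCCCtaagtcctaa

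These lie at chr5:151081057-151081086 on the minus strand (TNIP1, -42 to -33 of the second of its 2 annotated starts), chr14:102777406-102777435 on the plus strand (TRAF3, -33 to -24) and, for BIRC3, chr11:102317275-102317304 and chr11:102317339-102317368 on the plus strand (-199 to -190 and -135 to -126). The 10 capital letters of TNIP1 are the same as those of MIR3142HG, and the distal match of BIRC3 has the same letters as the downstream match of TNFAIP3. CYLD also held a match in the windows of 2 of its 3 annotated starts, at -189 to -180 and at 0 to 9. The windows of TNIP2, OTULIN and BIRC2 held none of these letters. A match is a string of letters, and binding was not measured.

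**Figure D1:**
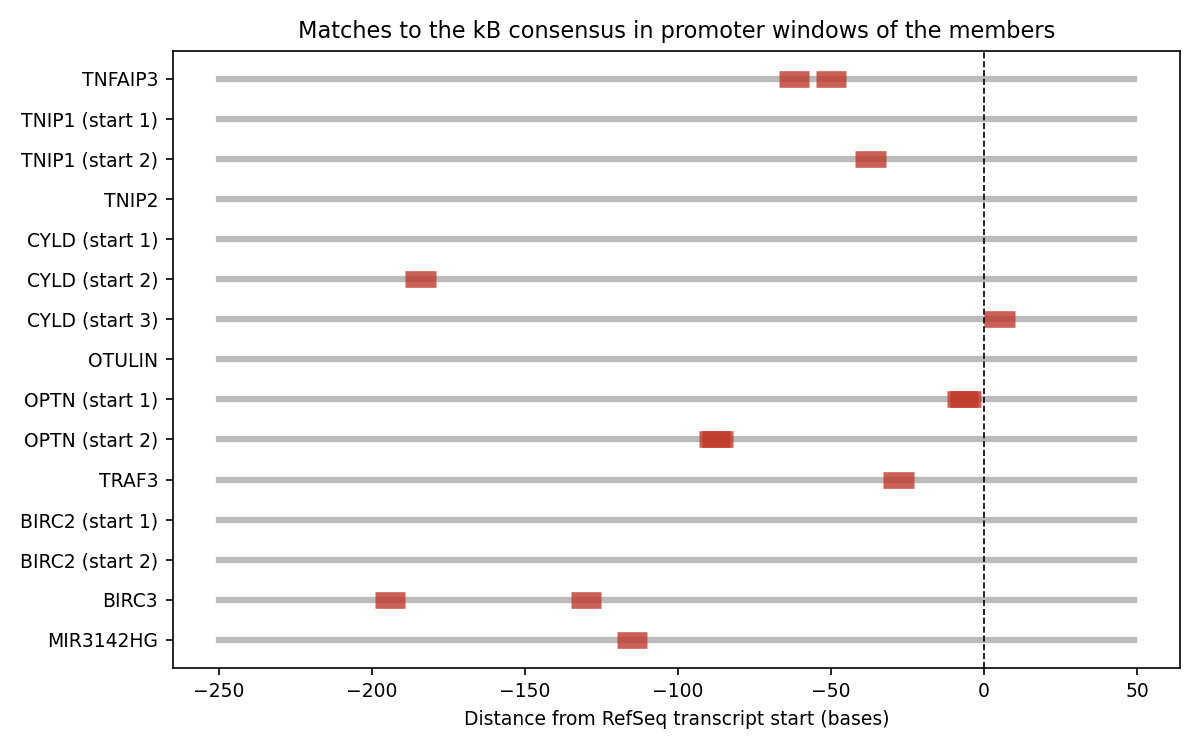
Grey bars are the promoter windows of the 10 genes, 1 row per RefSeq start, and red boxes are matches to the kB consensus; the x axis is the distance in bases from the start, marked by the dashed line. Matches lie in windows of 7 genes, from position -199 (BIRC3) to 9 (CYLD).

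With the days added, 3 of the 10 genes were higher in sgRELA than in sgControl: OPTN (3.35-fold), TNFAIP3 (1.76-fold) and MIR3142HG (5.04-fold). The other 7, which are TNIP1, TNIP2, CYLD, OTULIN, TRAF3, BIRC2 and BIRC3, were not called, and their log2 fold changes ran from 0.00 to 0.28. Over all 28888 genes tested, 0.242% were called higher and 0.363% in either direction. Because the RNA came from bulk cultures, more cells that express a gene and more RNA per cell cannot be told apart. The median log2 fold change of the 10 genes was 0.20, and that of all genes tested was 0.00. By unadjusted p, OPTN ranked 10, TNFAIP3 13 and MIR3142HG 54 among the genes tested.

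**Figure D2:**
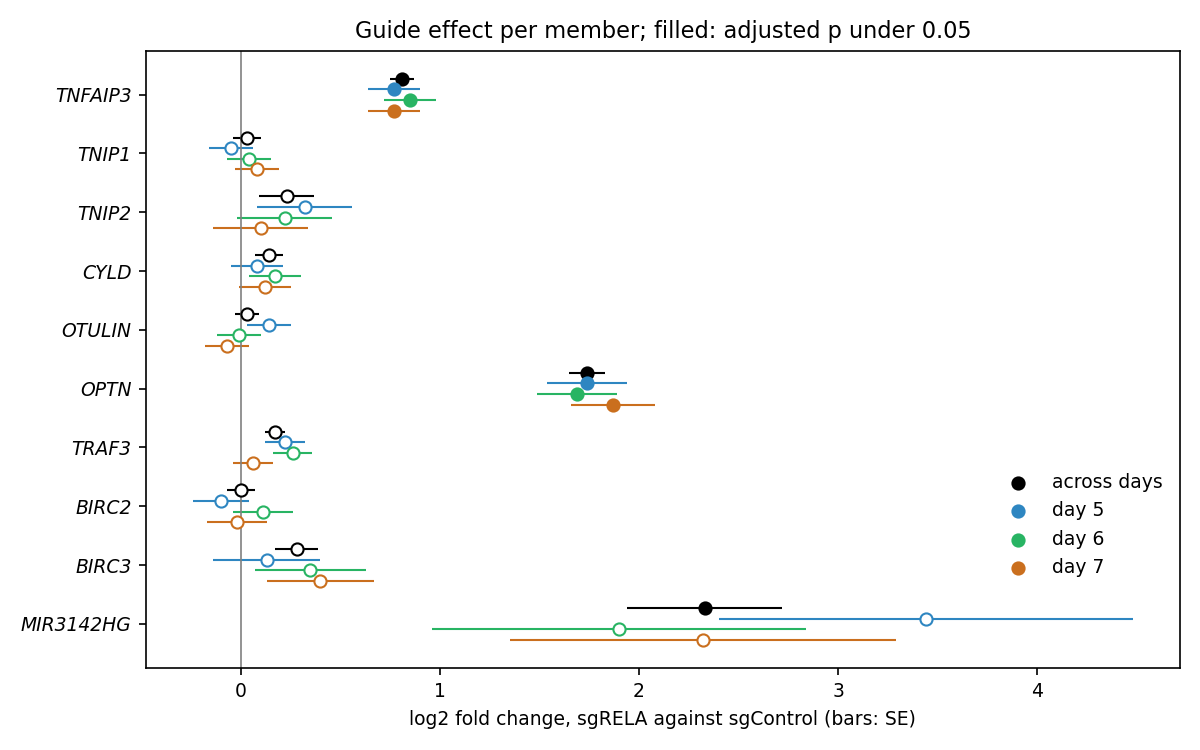
Log2 fold change of sgRELA against sgControl for each of the 10 genes (x axis), across days and on each day (colours), with bars for the SE and filled points for an adjusted p under 0.05. TNFAIP3 and OPTN are filled in all 4 comparisons, MIR3142HG only across days, and the other 7 lie near 0.

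TNFAIP3 encodes A20, an enzyme that removes some ubiquitin chains from signalling proteins, adds others and binds linear chains, and whose loss leaves NF-kB active for longer. The gene (ENSG00000118503) lies at chr6:137867188-137883312 on the plus strand in GENCODE v29. On day 5 its levels in replicates 1, 2 and 3 were 56.8, 71.6 and 66.5 CPM with sgControl and 105.3, 116.3 and 111.8 CPM in sgRELA. On day 6 they were 36.2, 46.5 and 41.5 CPM with sgControl and 77.7, 61.2 and 85.1 CPM in sgRELA. On day 7 they were 49.3, 38.8 and 49.5 CPM with sgControl and 73.6, 86.2 and 75.0 CPM in sgRELA. On each day every sgRELA sample was above every sgControl sample of that day, but the lowest sgRELA sample of day 6 was below 2 sgControl samples of day 5. The group means fell in the order sgRELA day 5 (111.1 ± 5.55 CPM), sgRELA day 7 (78.3 ± 6.89), sgRELA day 6 (74.7 ± 12.2), sgControl day 5 (64.9 ± 7.51), sgControl day 7 (45.9 ± 6.11) and sgControl day 6 (41.4 ± 5.18), and days 6 and 7 of the same guide overlapped, as did sgRELA on day 6 and sgControl on day 5. The rise across days was 0.81 ± 0.06 on the log2 scale (edgeR, adjusted p = 8.76e-08, n = 3 against 3). By day it was 0.77 ± 0.13 (adjusted p = 0.00246), 0.85 ± 0.13 (0.000587) and 0.77 ± 0.13 (0.00386). On day 7 the call was lost without replicate 2 of sgControl (adjusted p = 0.0743) or of sgRELA (0.0526), with log2 fold changes of 0.66 and 0.69. With only the first library of each RNA sample the adjusted p for TNFAIP3 was 0.248 on day 5, 0.293 on day 6 and 0.618 on day 7, and with only the second it was 0.0974 on day 5 and 0.0732 on day 7, at log2 fold changes of 0.71 to 0.85.

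OPTN encodes optineurin, an adaptor that binds linear ubiquitin chains, links them to the kinase TBK1 and to autophagy, and competes with the kinase complex for ubiquitin. The gene (ENSG00000123240) lies at chr10:13099449-13138308 on the plus strand. On day 5 its levels in replicates 1, 2 and 3 were 17.01, 10.1 and 16.1 CPM with sgControl and 49.4, 50.9 and 44.4 CPM in sgRELA. On day 6 they were 12.8, 18.8 and 18.4 CPM with sgControl and 45.8, 50.1 and 66.3 CPM in sgRELA. On day 7 they were 6.1, 9.0 and 5.6 CPM with sgControl and 25.3, 21.9 and 28.5 CPM in sgRELA. All 9 sgRELA samples were above all 9 sgControl samples, whatever the day. The rise across days was 1.74 ± 0.09 on the log2 scale (edgeR, adjusted p = 7.96e-11, n = 3 against 3). By day it was 1.74 ± 0.20 (adjusted p = 3.87e-06), 1.69 ± 0.20 (6.08e-06) and 1.87 ± 0.21 (2.17e-06), and it was called under every alternative that was run on any day.

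MIR3142HG is a spliced noncoding RNA (ENSG00000253522, a lincRNA at chr5:160438594-160487426 on the plus strand) from which miR-146a is cut, a microRNA known to lower IRAK1 and TRAF6 and so to damp signals from interleukin-1 and Toll-like receptors. The mature microRNAs encoded in the locus are shown from RefSeq (GRCh38.p14) because they are what the transcript is known for, with the seed, bases 2 to 8, in capitals.
hsa-miR-146a-5p: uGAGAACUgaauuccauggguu
hsa-miR-146a-3p: cCUCUGAAauucaguucuucag
hsa-miR-3142: aAGGCCUUucugaaccuucaga

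The 5p arm of miR-146a lies at chr5:160485372-160485393 and miR-3142 at chr5:160474492-160474513, both on the plus strand, and no 2 of these 3 seeds are the same. The level of a host RNA is not a measure of its mature microRNA. MIR3142, which has its own entry, had 0 counts in all libraries, where a count of 0 allows up to 3 counts per library, and MIR146A was not analysed here. The MIR3142 entry shares 82 bases with MIR3142HG on the same strand. How reads matching both were counted is not given, so its 0 counts do not show whether it was transcribed.

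Counts of MIR3142HG were low, so they are given as counts of an RNA sample. On day 5 replicates 1, 2 and 3 held 8, 0 and 4 counts in sgControl and 109, 13 and 28 in sgRELA. On day 6 they held 2, 26 and 16 counts in sgControl and 34, 25 and 93 in sgRELA. On day 7 they held 12, 14 and 0 counts in sgControl and 49, 59 and 28 in sgRELA. The guides did not overlap on days 5 and 7, and on day 6 an sgRELA sample was within the sgControl range. At least 1 count was found in 8 of 18 sgControl libraries and in 17 of 18 sgRELA libraries. With days added, the 3 sgControl sums held 20 to 40 counts and the 3 sgRELA sums 97 to 192, or 0.399 ± 0.167 against 2.01 ± 0.644 CPM. This rise was 2.33 ± 0.39 on the log2 scale (edgeR, adjusted p = 0.00406, n = 3 against 3). On single days it was 3.44 ± 1.04 (adjusted p = 0.515), 1.90 ± 0.94 (0.825) and 2.32 ± 0.97 (1), and none of these passed. The 109 counts of replicate 1 on day 5 came almost wholly from its first library, with 101 counts, against 8 in the second. Without that library the value across days was 2.04 (adjusted p = 0.0253), and it missed the threshold without replicate 3 of sgControl (0.0581) or replicate 1 of sgRELA (0.0823).

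**Figure D3:**
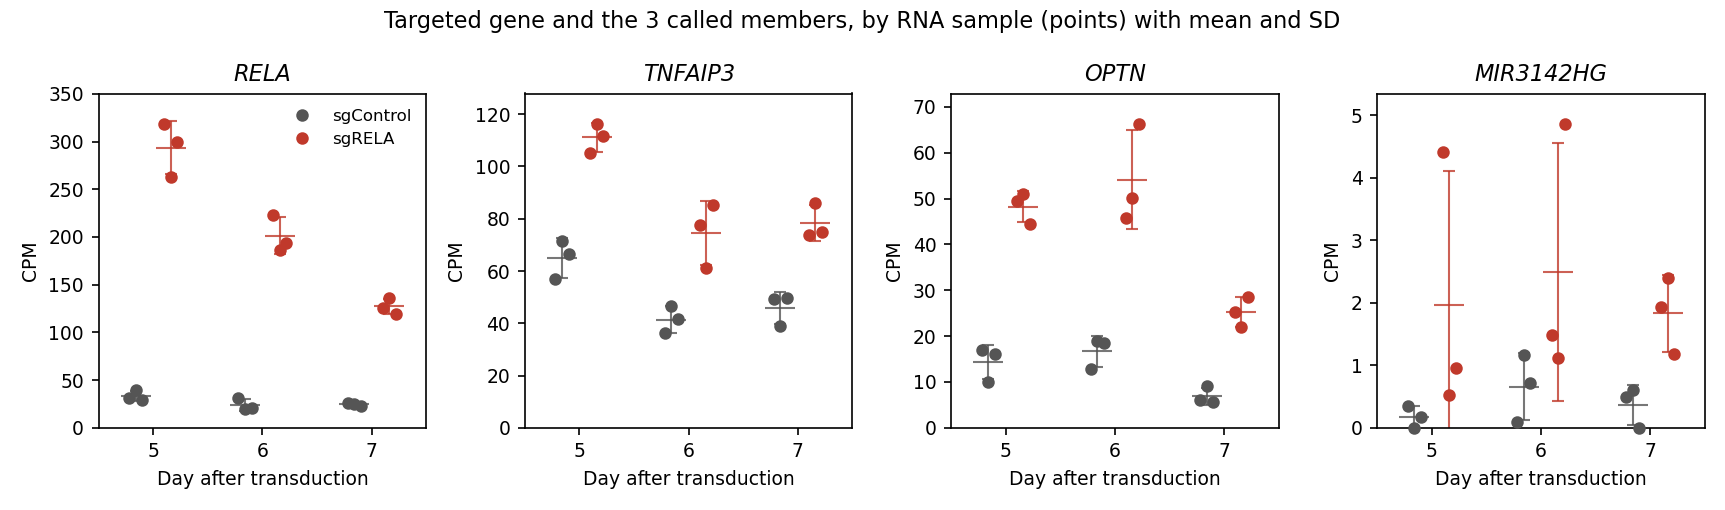
CPM (y axis, linear, from 0) of RELA, TNFAIP3, OPTN and MIR3142HG on days 5, 6 and 7 (x axis); each point is an RNA sample, and lines give the mean and SD of 3, with SD bars cut off at 0. For TNFAIP3 and OPTN every sgRELA point lies above the sgControl points of its day, while the MIR3142HG points spread from 0 to 4.86 CPM and meet on day 6.

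On single days TNFAIP3 and OPTN were called higher in sgRELA, and no other gene of the 10 was called by edgeR on any of the 3 days. DESeq2 also called 2 on each day, and an unadjusted p under 0.05 was found for 4, 3 and 3 of the 10 on days 5, 6 and 7, and for 1641, 1672 and 1290 of all genes. The share of all 27553 genes called higher was 0.102% on day 5, 0.152% on day 6 and 0.0653% on day 7. Both belonged to the 13 genes that were called higher on all 3 days, 0.0472% of those tested, among which were RELA itself and RELB, which encodes another NF-kB subunit. Counting separation between the guides in place of calls, 4 of the 10 genes had all sgRELA samples above all sgControl samples on day 5 (TNFAIP3, OPTN, TRAF3 and MIR3142HG), where 5.85% of all genes did. On day 6 there were 3 (TNFAIP3, OPTN and CYLD, against 5.91%) and on day 7 there were 4 (TNFAIP3, OPTN, BIRC3 and MIR3142HG, against 5.24%). Over the sums across days there were 5 (TNFAIP3, OPTN, TRAF3, BIRC3 and MIR3142HG), against 6.34%.

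Whether the effect of the guide differed between days was tested by an interaction term, an F test on 2 coefficients. None of the 10 genes was called, and none had an unadjusted p under 0.05 (edgeR), DESeq2 called none either, and 0.00363% of all genes tested were called. The unadjusted p was 0.891 for TNFAIP3, 0.827 for OPTN and 0.514 for MIR3142HG, and the smallest was 0.349 for TRAF3. RELA in sgRELA itself changed by -1.21 ± 0.13 on the log2 scale from day 5 to day 7 (adjusted p = 6.43e-08), and in sgControl by -0.43 ± 0.13 (0.0319). The fold difference between guides for RELA was 8.83 on day 5 and 5.14 on day 7, and for OPTN it was 3.35 and 3.65. The interaction was not called for RELA either (unadjusted p = 0.000298, adjusted p = 0.686).

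The 7 genes that were not called between guides covered a wide range of levels. TNIP1 and TNIP2 encode adaptors that bind ubiquitin and partner A20. TNIP1 had 75.1 ± 4.40 CPM with sgControl and 76.6 ± 5.53 CPM in sgRELA (log2 fold change 0.03 ± 0.07, adjusted p = 0.982). TNIP2 had 13.002 ± 1.62 against 15.3 ± 2.88 CPM (0.23 ± 0.14, adjusted p = 0.837). Both overlapped between guides on every day.

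CYLD removes linear and other ubiquitin chains from signalling complexes, and OTULIN cuts linear chains. CYLD had 70.6 ± 2.02 CPM with sgControl and 77.7 ± 7.73 CPM in sgRELA (0.14 ± 0.07, adjusted p = 0.761), and on day 6 its 3 sgRELA samples (79.3 to 84.1 CPM) lay above its 3 sgControl samples (65.9 to 77.4 CPM). OTULIN had 169.7 ± 13.6 against 173.4 ± 10.7 CPM (0.03 ± 0.06, adjusted p = 0.976), and its samples overlapped on every day. Neither deubiquitinase was called between guides on any day.

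TRAF3, BIRC2 and BIRC3 encode parts of the same receptor-bound complex: TRAF3 is the adaptor that holds NIK, and the products of BIRC2 and BIRC3, cIAP1 and cIAP2, are the ligases that mark it for destruction. TRAF3 had 103.0 ± 3.36 CPM with sgControl and 115.8 ± 5.38 CPM in sgRELA, a log2 fold change of 0.17 ± 0.05 with an unadjusted p of 0.00565 and an adjusted p of 0.377. BIRC3, a textbook NF-kB target, had 16.1 ± 1.01 against 19.6 ± 1.19 CPM (0.28 ± 0.11, unadjusted p = 0.0163, adjusted p = 0.558). Both genes had no overlap between the 3 sums of each guide, but neither passed the adjustment. BIRC2, its neighbour on chromosome 11, had 43.5 ± 1.52 against 43.4 ± 0.454 CPM (0.00 ± 0.07, adjusted p = 0.999). For BIRC3, 1 library of replicate 1 of sgControl on day 6 held 8 counts and its partner library 109, and the 3 sgControl samples of that day spread from 5.74 to 20.7 CPM. The same library had 17.1 CPM of BIRC2, where the other 5 of its group had 42.25 to 64.1 CPM. Its RELA level of 50.75 CPM was the highest of all sgControl libraries. Its CYLD (52.3 CPM), OTULIN (97.3 CPM) and TNFAIP3 (38.4 CPM) levels, like those of BIRC2 and BIRC3, were the lowest of its group. Its TNIP1 (89.2 CPM), TNIP2 (15.03 CPM) and TRAF3 (107.6 CPM) levels were the highest of its group. This library is 1 of the 2 libraries with few detected genes, and the cause of its values was not tested. Without those 2 libraries the log2 fold change of BIRC3 across days was 0.21 (edgeR, adjusted p = 0.818).

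**Figure D4:**
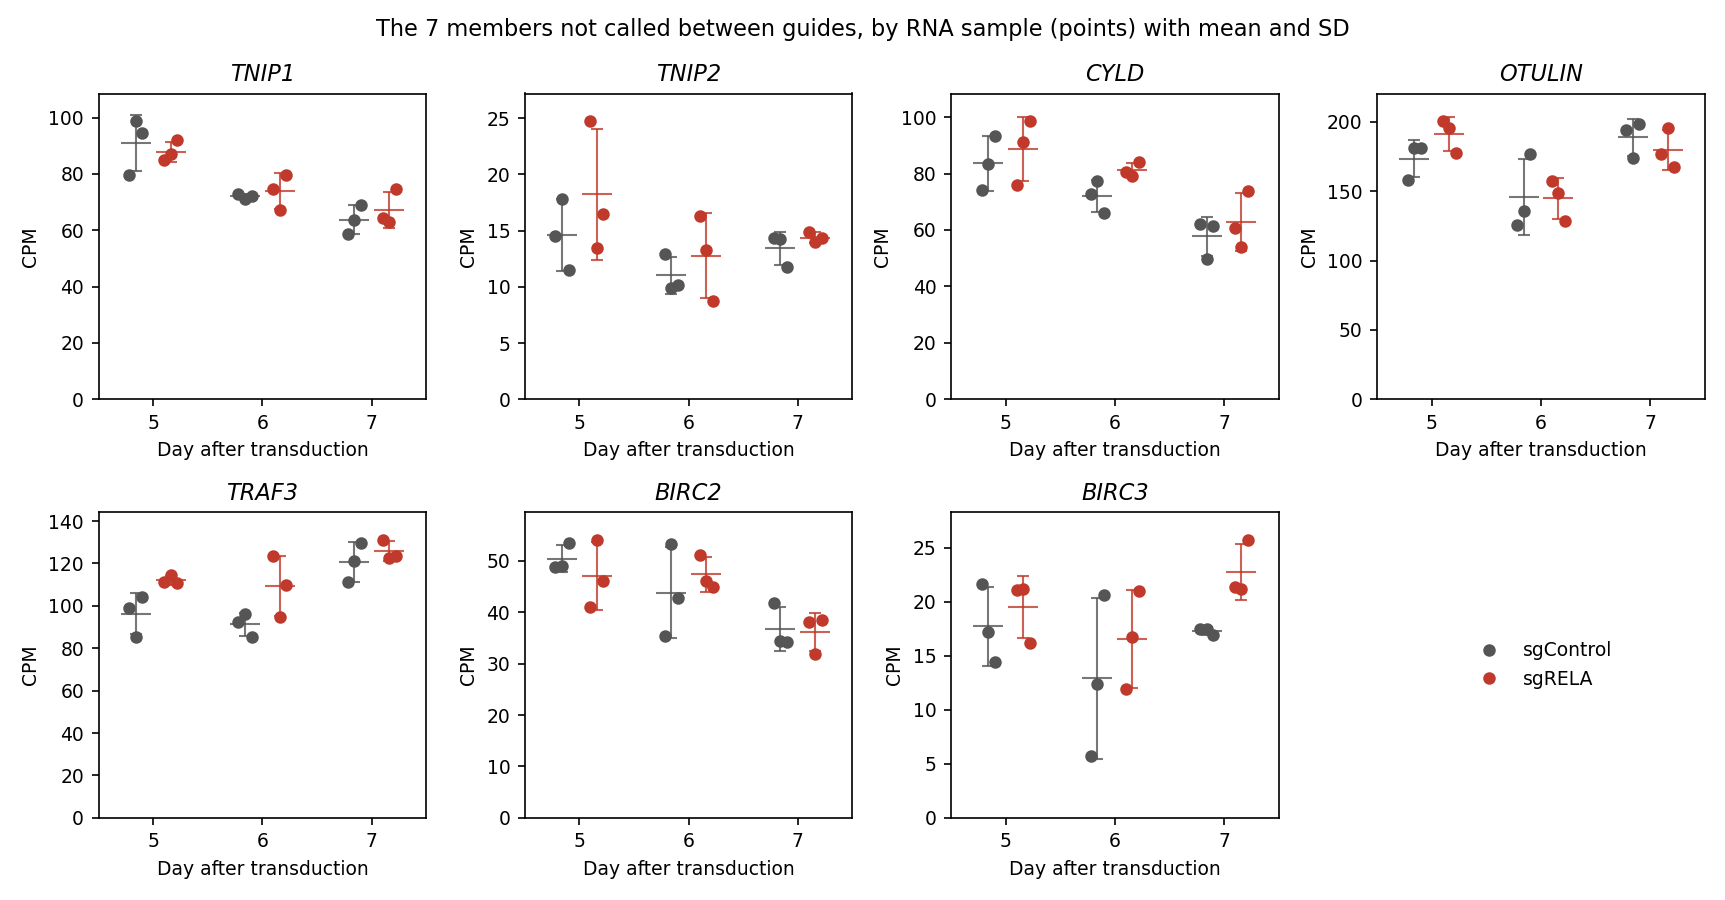
CPM (y axes, linear, from 0) of the 7 genes not called between guides, on days 5, 6 and 7 (x axes); each point is an RNA sample and lines give the mean and SD of 3. The guides overlap on most days, and in both guides the day 7 means of TNIP1, CYLD and BIRC2 lie below those of day 5, a difference that for BIRC2 passed the test in sgControl alone.

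To set the levels of different genes side by side, CPM was divided by the length of the gene's exons in kilobases (GENCODE v29). In sgControl on day 5 OTULIN was highest, with 20.1 CPM per kb, followed by TNIP1 (15.7), TNFAIP3 (12.9), TRAF3 (11.6), BIRC2 (11.1), CYLD (6.45), TNIP2 (5.44), OPTN (2.80), BIRC3 (2.36) and MIR3142HG (0.0734). In sgRELA on the same day TNFAIP3 had 22.0 CPM per kb, level with OTULIN at 22.2, and OPTN had 9.38, above CYLD (6.84) and TNIP2 (6.78). MIR3142HG remained the lowest in all 6 groups and did not pass 1.05 CPM per kb.

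Between days 7 and 5 more of these genes were called than between guides, and so were more genes of the whole table. Between day 7 and day 5 in sgControl, 5 of the 10 genes fell (TNFAIP3, TNIP1, CYLD, OPTN and BIRC2) and TRAF3 rose, where 13% of all genes were called, 6.36% lower and 6.65% higher. In sgRELA 4 fell (TNFAIP3, TNIP1, CYLD and OPTN), where 12.4% of all genes were called and 6.06% were lower. The 4 genes that fell in sgRELA also fell in sgControl. Of all 27553 genes tested, 1024 were called lower in both guides and 1210 higher in both, together 8.11%. With the first library of each RNA sample alone, 1 of the 10 was called in sgControl (TNIP1) and 0 in sgRELA, with 820 and 669 genes called in the table. With the second alone, 4 and 3 of the 10 were called, and TNIP1 lost its call in sgControl (-0.33, edgeR, adjusted p = 0.16). With each replicate left out in turn, 3 to 6 and 2 to 4 were called. The median log2 fold change of the 10 genes was -0.29 in sgControl and -0.36 in sgRELA, and that of all genes was -0.01 in each. Harvest day and any batch of culture, extraction or sequencing that went with it cannot be told apart. Of the 10 T-lineage markers, 5 rose and 1 fell between the same days in each guide, and their part in the result was not tested.

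**Figure D5:**
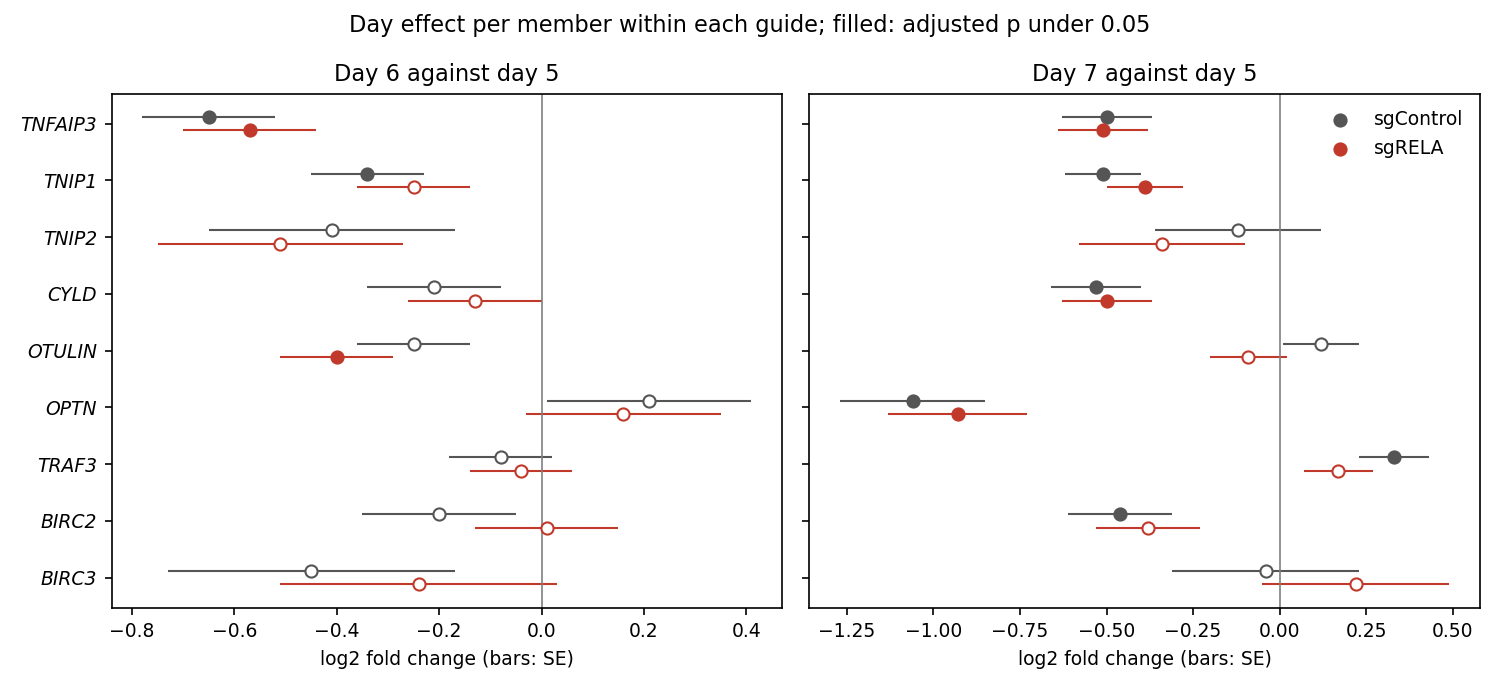
Log2 fold change (x axes) of 9 genes between days within sgControl and sgRELA, with bars for the SE and filled points for an adjusted p under 0.05; the left panel is day 6 against day 5 and the right panel day 7 against day 5. MIR3142HG is left out for its low counts. TNFAIP3, TNIP1, CYLD and OPTN are filled and below 0 in both guides on the right, and OPTN lies above 0 and unfilled on the left.

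OPTN fell between days 6 and 7 in both guides. Between days 5 and 6 it was not called in either guide (0.21 ± 0.20 in sgControl and 0.16 ± 0.19 in sgRELA). Between days 6 and 7 its log2 fold change was -1.27 ± 0.21 in sgControl (edgeR, adjusted p = 4.22e-05) and -1.10 ± 0.20 in sgRELA (0.000169), both without overlap. From 16.7 ± 3.37 CPM on day 6 the sgControl mean went to 6.92 ± 1.85 CPM on day 7, and the sgRELA mean went from 54.1 ± 10.8 to 25.2 ± 3.28 CPM. Over the whole span from day 5 the values were -1.06 ± 0.21 and -0.93 ± 0.20.

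TNFAIP3 fell between days 5 and 6 in both guides. From day 5 to day 6 its log2 fold change was -0.65 ± 0.13 in sgControl (edgeR, adjusted p = 0.00136) and -0.57 ± 0.13 in sgRELA (0.00438), and from day 6 to day 7 it was 0.15 ± 0.13 and 0.07 ± 0.13, neither called. Its fall between days 7 and 5 in sgControl (-0.50 ± 0.13, adjusted p = 0.00876) was lost without replicate 2 of day 5 (-0.42, adjusted p = 0.0585) or of day 7 (-0.39, 0.0841), and the day 6 step in sgRELA without replicate 2 of day 6 (-0.45, 0.0617). That day 6 step was called in 2 of the 10 genes in each guide, TNFAIP3 and TNIP1 in sgControl and TNFAIP3 and OTULIN in sgRELA, all of them lower, against 5.58% and 4.34% of all genes called lower.

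TNIP1 and CYLD also fell between days 5 and 7. From day 5 to day 7 the values for TNIP1 were -0.51 ± 0.11 in sgControl (edgeR, adjusted p = 0.0014) and -0.39 ± 0.11 in sgRELA (0.016), and those for CYLD were -0.53 ± 0.13 (0.00383) and -0.50 ± 0.13 (0.00721). The TNIP1 call between days 6 and 5 in sgControl (-0.34 ± 0.11, adjusted p = 0.0491) was lost in 10 of 13 alternatives, 5 of which left out a replicate (adjusted p 0.0755 to 0.186). In sgRELA the TNIP1 call between days 7 and 5 was lost without replicate 3 of day 5 (0.0756) or replicates 1 (0.0792) or 2 (0.0949) of day 7, and the CYLD call without replicate 3 of day 5 (0.0609) or 2 of day 7 (0.0734). BIRC2 went from 50.5 ± 2.62 to 36.8 ± 4.27 CPM in sgControl (-0.46 ± 0.15, adjusted p = 0.0351) and from 47.1 ± 6.63 to 36.2 ± 3.74 CPM in sgRELA (-0.38 ± 0.15, adjusted p = 0.0891). The sgControl call for BIRC2 was lost in 7 of 13 alternatives, 5 of which left out a replicate (adjusted p 0.0619 to 0.132).

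Genes that rose with time were fewer. TRAF3 rose in sgControl from 91.3 ± 5.37 CPM on day 6 to 120.7 ± 9.25 CPM on day 7 (0.40 ± 0.10, edgeR, adjusted p = 0.00582), while in sgRELA its value for the same step was 0.20 ± 0.10 (0.246). Over the whole span TRAF3 changed by 0.33 ± 0.10 in sgControl (0.0313), a call lost without any of 4 replicates (0.0533 to 0.172), and by 0.17 ± 0.10 in sgRELA (0.356). OTULIN had its lowest mean on day 6 in both guides: its step from day 5 was -0.40 ± 0.11 in sgRELA (0.0185) and -0.25 ± 0.11 in sgControl (0.167), and its step to day 7 was 0.37 ± 0.11 in sgControl (0.0163) and 0.31 ± 0.11 in sgRELA (0.055). The OTULIN call in sgControl was lost in 5 of 13 alternatives, 4 of which left out a replicate (0.0595 to 0.0677), that in sgRELA in 5 of 14, 3 of which did (0.0575 to 0.135), and the TRAF3 call between days 7 and 6 in 1 of 13. From day 6 to day 7, 3 of the 10 genes were called in sgControl and OPTN alone in sgRELA, with OTULIN and TRAF3 higher and OPTN lower. Of all genes, 8.25% were called higher and 6.31% lower in sgControl over that step, and 5.02% lower in sgRELA. OTULIN in sgRELA missed the threshold here and passed it in 6 of 13 alternatives, DESeq2 and the unfiltered fit among them.

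Other genes of the same machinery were followed as a list of 35, of which 34 had enough counts to be tested. They are the linear ubiquitin assembly complex, partners of A20 and further brakes, the TRAF and receptor complex, the kinases, and the interleukin-1 receptor kinases. Across days, 1 of the 34 was called between guides and it was higher, where 0.242% of all genes tested were called higher. This was PDLIM2, a nuclear ubiquitin ligase known to mark RELA for degradation. PDLIM2 had 17.05 ± 2.60 CPM with sgControl and 27.7 ± 0.648 CPM in sgRELA (0.70 ± 0.11, edgeR, adjusted p = 0.00158). On day 5 its log2 fold change was 1.02 ± 0.23 (adjusted p = 0.066), on day 6 it was 0.36 ± 0.22 and on day 7 it was 0.70 ± 0.23, and none passed. The median over the 34 was 0.02. The known targets of miR-146a were not called: IRAK1 had a log2 fold change of 0.07 ± 0.07 and TRAF6 of 0.03 ± 0.07.

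Between days 7 and 5, 2 of the 34 rose and 6 fell in sgControl, where 6.65% of all genes rose and 6.36% fell, and 2 rose and 3 fell in sgRELA, where 6.35% rose and 6.06% fell. Called in both guides with the same sign, as were 8.11% of all genes, were 5 of the 34: TRAF1, an adaptor of TNF receptors (-1.19 ± 0.25 and -1.27 ± 0.25), TAB3, an adaptor of the kinase TAK1 (-0.56 ± 0.11 and -0.57 ± 0.11), TRAF5 (-0.40 ± 0.09 and -0.46 ± 0.09), the kinase gene IKBKE (0.48 ± 0.15 and 0.58 ± 0.15) and IRAK1 (0.39 ± 0.12 and 0.39 ± 0.12). RBCK1, which encodes a subunit of the linear ubiquitin ligase, rose by 0.65 ± 0.10 in sgControl and 0.64 ± 0.10 in sgRELA from day 5 to day 6 and then changed by -0.80 ± 0.10 and -0.67 ± 0.10 to day 7. It was named after its values were seen.

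The genes whose log2(CPM + 1) followed TNFAIP3 most closely over the 18 RNA samples, out of 12528 genes that averaged 5 CPM or more, were FHIP2A (Pearson r 0.89), NEAT1, LONRF1, PTPN2 and RELA (each 0.87). OPTN had an r of 0.71 and rank 36, and the 7 other genes of the 10 with enough counts had 0.29 to 0.51. The samples fall into shared groups of guide and day, so these values only describe how levels varied together over them. TNFAIP3 is high with sgRELA and on day 5, and so is RELA.

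Some of these genes overlap others in GENCODE v29, and whether counting used strand is not given in the sources used here. A transcript on the opposite strand (WAKMAR2, ENSG00000237499) shares 1046 bases with TNFAIP3, and its log2 fold change between guides was -0.02 ± 0.08, not called. OPTN shares 204 bases with CCDC3 on the opposite strand, which had 0.848 CPM with sgControl and 0.981 CPM in sgRELA. Neither WAKMAR2 nor CCDC3 was called between guides on any day. OPTN also shares 220 bases with the pseudogene SNRPGP5 on the opposite strand. The SNRPGP5 sums across days held 0 to 12 counts with sgControl and 13 to 18 in sgRELA. It was not called across days and was not tested on single days. On the strand opposite CYLD, ENSG00000260616 shares 18077 bases with it and CYLD-AS1 766 bases, and neither was called between guides.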

How the data were processed

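RNA of 18 Jurkat samples was measured in 36 RamDA-seq libraries. The authors deposited 1 table of raw counts per Ensembl gene, without normalization, per the labels. The submitters' processing notes name cutadapt 1.18, STAR 2.7.9a and GRCh38; the counting tool, annotation, strand setting and treatment of reads with several matches are not given in the sources used here. No molecular identifiers are mentioned, so a limit drawn from a count of 0 covers counting error only.

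Columns were assigned to samples through the column names in the labels. Of 74628 identifiers, 57693 were found in the gene name table. Both libraries of an RNA sample were added and not counted as replicates. For single days and for days within a guide, the 18 sums were fitted in 1 model with a mean per group (27553 genes). Across days, counts were added over days per guide and replicate number, 3 sums against 3 (28888 genes); days of a replicate number may share a transduction. After TMM scaling and filterByExpr (minimum count 10), genes were tested by quasi-likelihood in edgeR 4.0.16 (R 4.3.3), and p-values were adjusted by Benjamini and Hochberg's method. All 10 genes passed the filter. SEs were derived from the F statistic. The procedure was also run on simulated counts, drawn independently without day effects or shared transductions. That run does not cover those features, and no result here rests on it. Alternatives were DESeq2 1.42.0, its size factors, no filter, either library alone, 2 libraries with few detected genes left out, a replicate block, an additive model and each replicate left out in turn. Those 2 were the first libraries of sgControl replicate 2 on day 5 and of sgControl replicate 1 on day 6.

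The 10 genes, the lists and the tests were chosen with earlier results of these data known. All 10 genes are described, with every sample's value for those called between guides. Of the other pathway genes, those called between guides and up to 6 called between days 7 and 5 in both guides are named. The 5 genes most correlated with TNFAIP3 are named as a description. If replicates share more than the labels say, p-values measure only the spread between these samples. Same-numbered replicates showed little shared deviation, with r from -0.01 to 0.1 between guides on the same day. Between days r ran from -0.21 to 0.06 in sgControl and from -0.02 to 0.02 in sgRELA. Spread between single libraries can hide a shared source, so whether the numbers pair the samples stays unknown. Promoter and microRNA sequences are from RefSeq tables on GRCh38.p14, and gene positions from GENCODE v29.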

Additional observations from a re-analysis of the deposited data

Results flagged for a closer look

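The 6 libraries of each group (3 RNA samples, 2 libraries each) were searched for a highest or lowest library whose gap to its nearest neighbour, as a share of the group's range, was above Dixon's critical value for 6 values. In 60 searches, 1 per gene and group, 4 passed, with gaps of 0.631 to 0.848 of the range; chance alone gives about 1 in 20. The first library of replicate 1 of sgRELA on day 5 had 8.14 CPM of MIR3142HG (101 counts), and the others of that group had 0 to 1.24 CPM. TNIP2 had 5.88 CPM (72 counts) in the first library of replicate 3 of sgControl on day 5, where the others had 14.01 to 18.8 CPM. TNIP2 also had 23.3 CPM in the first library of replicate 1 of sgRELA on day 6, where the others had 8.55 to 13.9 CPM. TRAF3 had 69.4 CPM in the first library of replicate 2 of sgControl on day 5, where the others had 93.97 to 105.0 CPM. This library is 1 of the 2 with few detected genes.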

How the results depend on the processing

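When the comparisons of the 10 genes were repeated under the alternatives, 1528 results kept their side of the threshold, 65 lost a call and 17 gained one. Those that kept their side include results without a call in the main fit, the interaction among them, which had none to lose. The 65 lost calls fall on the called results alone. A fit without an adjusted p, such as MIR3142HG on day 6 with DESeq2, was also counted as kept. No called value turned its sign, but some uncalled ones did, such as TNIP2 across days (0.23, lowest -0.06) and BIRC3 on day 6 (0.35, lowest -0.06). TNFAIP3 (0.77 to 0.84) and OPTN (1.69 to 1.78) were called across days under all 15 alternatives. MIR3142HG (2.04 to 2.73) lost its call in 4 of 15: with the first library only (adjusted p = 0.589), with the second only (0.412) and without 2 of the replicates (0.0581 and 0.0823). Unfiltered, it was also called on day 5 (0.0483).

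Counts of the 10 genes called moved as follows. With the first library only, 1 of the 10 was called between guides on day 5, 1 on day 6 and 1 on day 7, and 0, 1 and 1 between days 6 and 5, 7 and 6, and 7 and 5 in sgControl, and 0 and 0 between days 6 and 5, and 7 and 5 in sgRELA. With the second library only, 1 was called on day 5, 1 on day 7 and 1 for days 6 and 5 in each guide. Unfiltered, 1 was called for days 6 and 5 in sgControl and 3 for days 7 and 6 in sgRELA, where DESeq2 called 4 and its size factors 2. Without the 2 libraries of few genes these were 1 and 2. With the replicate block they were also 1 and 2, and the block changed no call between guides.

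For all genes, the count across days was 105, and it was 224 with DESeq2, 221 unfiltered, 42 with the first and 49 with the second library, 124 with the replicate block and 94 without the first library of sgRELA day 5 replicate 1, an alternative chosen after seeing the data (1959 for days 6 and 5 in sgRELA). On day 5 these were 73, 68, 15 and 22, on day 6 DESeq2 gave 126 and the libraries 15 and 35, and on day 7 DESeq2 gave 53, no filter 55 and the first library 13. For the interaction they were 12, 24, 0 and 0, and 3 without the 2 libraries. Between days the first library gave 430, 1879 and 820 (6 and 5, 7 and 6, 7 and 5) in sgControl and 196, 961 and 669 in sgRELA. The second gave 1374 and 2628 (6 and 5, 7 and 6) in sgControl and 1183 (6 and 5) and 2222 (7 and 5) in sgRELA, and DESeq2 2883 for days 6 and 5 in sgRELA. The cause was not tested.

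Leaving out each replicate gave these ranges of the 10 genes and of all genes: 2 to 3 and 66 to 79 across days, 2 to 2 and 31 to 33 on day 5, 2 to 2 and 38 to 68 on day 6, 1 to 2 and 16 to 26 on day 7, and 0 to 0 and 0 to 3 for the interaction. In sgControl they were 1 to 3 and 1726 to 2292 (days 6 and 5), 2 to 4 and 3196 to 3644 (7 and 6), and 3 to 6 and 2638 to 2905 (7 and 5). In sgRELA they were 1 to 2 and 1242 to 1469, 1 to 2 and 2540 to 2724, and 2 to 4 and 2509 to 2667. MIR3142HG had 0 to 109 counts per RNA sample, and its SE was 0.94 to 1.04 on single days.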
